A study of Mus musculus with 8 samples.

Results

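The genes described here are induced by type I interferons, the cytokines of the interferon alpha and beta family. They are 39 named genes taken from a list, each read from the brightest probe that carries its symbol alone. Of these, 36 had such a probe, among 19937 genes measured in the series, and 34 lay above a floor on dim genes and were tested beside 14953 genes in all. Mx1 and Mx2, which encode antiviral GTPases, lay below the floor and are given by level. Oas1g, Isg15 and Ifi44 had no probe with a single symbol.

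The study asked how mepenzolate, a muscarinic receptor antagonist, acts on the mouse lung. Mice were given mepenzolate or vehicle, and total RNA of lung tissue was hybridised to 1-colour Affymetrix arrays at 7 h or 25 h, which gives 4 groups of 2 arrays (vehicle 7 h, mepenzolate 7 h, vehicle 25 h and mepenzolate 25 h). The treatment protocol attached to all 8 arrays is the same: the drug was dissolved in PBS and delivered into the trachea with a micropipette while the animals were anesthetised with chloral hydrate at 500 mg/kg. Strain, genotype, age, sex, drug dose and any lung injury are not given in the sources used here, nor is it said that each array holds a different mouse. The p-values therefore measure no more than the scatter of these arrays, possibly technical.

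Interferons alpha and beta bind a shared receptor, IFNAR1 with IFNAR2, on almost every cell type. The receptor's kinases JAK1 and TYK2 activate transcription factors, STAT2 with IRF9 among them, that bind a short DNA motif, the interferon-stimulated response element, near the genes they induce. The products block viral entry, degrade or sense viral RNA, load viral peptides for T cells and damp the signal again. Lung epithelium, endothelium, macrophages and lymphoid cells can all express them.

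The response element is the sequence feature that ties the genes to the pathway, so promoters of members that hold it, and of one that does not, are shown first. The motif searched was GAAANNGAAA or its reverse complement TTTCNNTTTC, on both strands and with overlapping matches allowed, in windows from 250 bases before to 50 bases after a gene's start in RefSeq's annotation of build GRCm38.p6. Of the 36 members, 25 had a window in that table. The motif was found for 12 of these 25 (48%) and for 1079 of all 27025 genes in the table (3.99%). It lay wholly before the start for 8 members, against 3.46% of all genes. The 4 sequences are the 200 bases before the start, read 5′ to 3′ on the gene's strand, with matches in capitals: Ifit1 at chr19:34640689-34640888 (plus strand), Ifit3 at chr19:34583329-34583528 (plus), Oas1a at chr5:120907526-120907725 (minus) and Oasl2 at chr5:114896734-114896933 (plus).
Ifit1: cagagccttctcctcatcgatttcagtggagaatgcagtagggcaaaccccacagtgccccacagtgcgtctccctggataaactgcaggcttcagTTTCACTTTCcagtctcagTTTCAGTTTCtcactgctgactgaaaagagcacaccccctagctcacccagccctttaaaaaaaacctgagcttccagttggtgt
Ifit3: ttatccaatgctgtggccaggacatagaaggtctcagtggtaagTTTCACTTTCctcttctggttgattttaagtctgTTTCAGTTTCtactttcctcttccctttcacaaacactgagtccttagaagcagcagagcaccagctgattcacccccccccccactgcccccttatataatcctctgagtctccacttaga
Oas1a: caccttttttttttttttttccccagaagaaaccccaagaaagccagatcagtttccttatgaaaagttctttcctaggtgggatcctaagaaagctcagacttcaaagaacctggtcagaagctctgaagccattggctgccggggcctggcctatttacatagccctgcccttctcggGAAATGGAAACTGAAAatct
Oasl2: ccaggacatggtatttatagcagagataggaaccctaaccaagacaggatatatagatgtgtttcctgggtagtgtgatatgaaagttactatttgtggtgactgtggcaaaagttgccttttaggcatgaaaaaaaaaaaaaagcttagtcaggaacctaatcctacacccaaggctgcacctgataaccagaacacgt
Ifit1 and Ifit3 each held 2 matches, beginning at -104 and -85 from the start in Ifit1 and at -156 and -122 in Ifit3. In Oas1a the 2 matches overlapped, at -20 and -14. Oasl2 held no match to the motif in its window, which says only that this spelling was not found there. The other members with a match were Bst2, Ddx58, Eif2ak2, Ifih1, Ifitm3, Oas3, Rsad2, Stat2 and Trim30a. A match is a description of the sequence and was not tested as a binding site.

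All levels are log2 values as deposited, so a difference of 1 is a doubling. Values spanned 2.00 to 13.98, with medians of 6.70 to 6.77 per array. Arrays of the same group correlated at 0.988 to 0.993 and arrays of different groups at 0.988 to 0.993 as well, across all probes. The markers of lung tissue were present throughout: mean levels over 8 arrays ran from 12.05 to 12.20 for 7 alveolar type 2 genes, 11.07 to 11.21 for 6 alveolar type 1 genes and 10.76 to 10.95 for 7 endothelial genes. Array 2 of mepenzolate at 7 h stood apart from the rest. There the albumin gene Alb read 8.93 against 5.94 to 6.39 elsewhere, and the mean of 8 club cell genes was 9.99 against 10.59 to 11.07.

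Across the arrays the interferon-induced genes moved little. The median standard deviation of a member over 8 arrays was 0.110, against 0.105 for all genes tested, and 20 of the 34 members were above that all-gene value. The members' median deviation from their own 8-array means was above 0 on all 4 arrays taken at 7 h: 0.026 and 0.053 with vehicle and 0.058 and 0.048 with mepenzolate. At 25 h it was -0.043 and -0.075 with vehicle, and it split with mepenzolate, 0.022 on array 1 and -0.10 on array 2. Array 2 of mepenzolate at 25 h held the lowest reading of 13 members, and it also held the lowest reading of 22.0% of all genes. Array 2 of mepenzolate at 7 h held the highest reading of 10 members, against 10.8% of all genes.

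**Figure D1:**
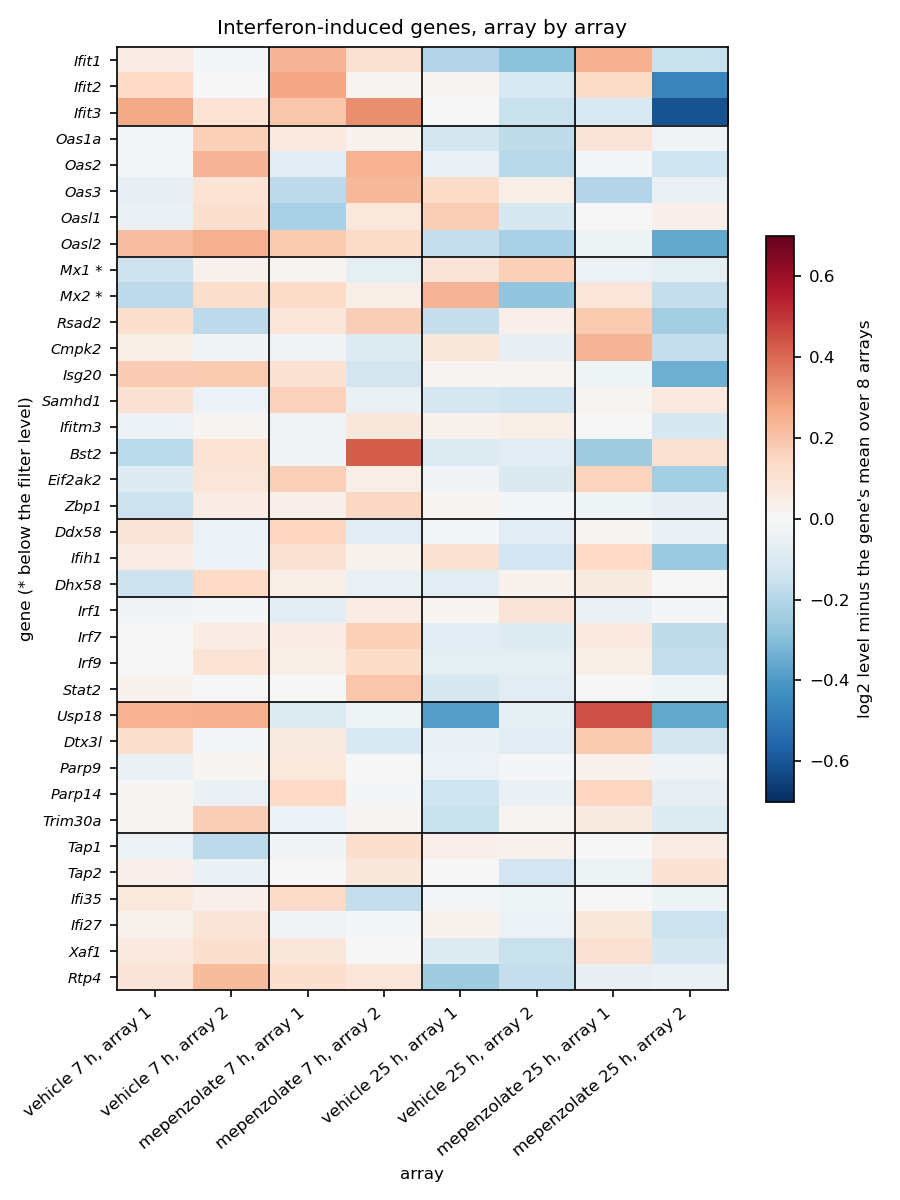
Deviation of each of the 36 measured interferon-induced genes (down the side, by role) from its own 8-array mean (log2, colour), with 1 column per array in the 4 treatment and time groups; Mx1 and Mx2 lay below the floor. The standard deviation over the 8 arrays was largest for Ifit3 (0.30), Usp18 (0.30), Oasl2 (0.23), Ifit2 (0.22) and Bst2 (0.21). Array 2 of mepenzolate at 25 h holds the lowest reading of 13 members.

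At 7 h no interferon-induced gene passed the test of mepenzolate against vehicle lungs. Of the 34 members, 19 stood higher and 15 lower with mepenzolate, by -0.31 to 0.25. Their median was 0.019, against -0.013 for all genes. limma with Benjamini-Hochberg adjustment called 0 members, with a smallest adjusted p of 1.00, and 0% of all genes, and at an unadjusted p under 0.05 it counted 0 members and 2.39% of all genes. The 2 arrays of each group did not overlap for 7 members, 2 higher and 5 lower, where 8.26% of all genes were wholly higher and 15.5% wholly lower. The share of all genes below 0 was 56.4%, and 45.8% once each array was centred on its median.

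The members with the highest moderated statistic at 7 h were Tap1, Zbp1, Bst2, Ifit1 and Rsad2. Tap1, a subunit of the transporter that carries peptides to MHC class I, read 8.12 and 7.98 with vehicle and 8.14 and 8.28 with mepenzolate, a difference of 0.16 ± 0.087 (SE, n = 2 per group). Bst2, tetherin, which holds budding virus at the cell surface, read 7.88 and 8.17 with vehicle and 8.05 and 8.50 with mepenzolate, 0.25 ± 0.17. Tap1 did not overlap between the groups, by a gap smaller than the spread within either, and Bst2 did overlap. The difference of Tap1 was 0.090 without array 2 of either group, and that of Bst2 ran from 0.025 without array 2 of mepenzolate to 0.47 without array 1. Zbp1, a sensor of Z-form nucleic acid, stood 0.14 ± 0.092 higher, from 6.95 and 7.15 to 7.13 and 7.25, and by 0.036 without array 1 of vehicle. Rsad2, viperin, an enzyme that makes a chain-terminating nucleotide, stood 0.16 ± 0.16 higher, from 7.45 and 7.15 to 7.42 and 7.51, and by 0.018 without array 2 of vehicle. Both overlapped.

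At the other end at 7 h were Isg20, Usp18, Trim30a, Oasl1 and Ifi27. Isg20, an exonuclease that degrades RNA, read 9.71 and 9.72 with vehicle and 9.64 and 9.41 with mepenzolate, -0.19 ± 0.12. Usp18, the protease that removes ISG15 from proteins and also blocks IFNAR2 signalling, read 9.19 on both vehicle arrays and 8.85 and 8.91 with mepenzolate, -0.31 ± 0.23. Both mepenzolate arrays lay below both vehicle arrays for these genes, but the SE of Usp18, whose values spread widely at 25 h, was the widest of the members. Isg20 was at -0.078 without array 2 of mepenzolate and at -0.31 without array 1. Trim30a, a ubiquitin ligase, differed by -0.10 ± 0.10, Oasl1, a relative of the OAS enzymes that restrains translation of Irf7, by -0.11 ± 0.13, and Ifi27 by -0.075 ± 0.094. Without array 2 of vehicle these 3 were at -0.026, -0.029 and -0.043, and Oasl1 was at 0.042 without array 1 of mepenzolate.

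At 25 h the differences between mepenzolate and vehicle were again mixed, and no member passed. Of the 34 members, 22 stood higher and 12 lower, by -0.28 to 0.29, with a median of 0.025. All genes had a median of -0.023, and 58.7% of them stood lower. limma called 0 members (smallest adjusted p 0.979) and 0% of all genes; at an unadjusted p under 0.05 it counted 0 members and 4.01% of all genes. The groups did not overlap for 5 members higher and 5 lower with mepenzolate, where 14.2% of all genes were wholly higher and 22.4% wholly lower. The members' balance rested on single arrays: 21 of the 34 stood lower without array 1 of mepenzolate and 9 without array 2, and the median was -0.039 and 0.11.

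Ifit1 had the largest positive difference at 25 h. It encodes a protein that binds viral RNA lacking the host's cap methylation. Its level was 7.40 and 7.32 with vehicle and 7.85 and 7.45 with mepenzolate, a difference of 0.29 ± 0.13 (SE, n = 2 per group), and at 7 h it was 7.66 and 7.59 with vehicle and 7.84 and 7.71 with mepenzolate, 0.15 ± 0.13. Both mepenzolate arrays lay above both vehicle arrays at each time. Without array 1 of mepenzolate the difference was 0.089 at 25 h and 0.080 at 7 h, and without array 2 it was 0.49 at 25 h. Over both times the difference was 0.22 ± 0.091, with an unadjusted p of 0.0439 and an adjusted p of 0.999 by limma, and it was 0.12 without array 1 of mepenzolate at 25 h.

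Its relative Ifit3, which binds IFIT1 and steadies it on RNA, went the other way at 25 h. It read 9.83 and 9.67 with vehicle and 9.72 and 9.22 with mepenzolate, -0.28 ± 0.16, which was -0.028 without array 2 of mepenzolate and -0.53 without array 1. At 7 h the mepenzolate arrays, 10.02 and 10.15, stood around the vehicle arrays, 10.09 and 9.92. Ifit2, the remaining family member, read 8.03 and 7.89 with vehicle and 8.16 and 7.91 with mepenzolate at 7 h, then 7.91 and 7.79 against 8.02 and 7.43 at 25 h. The IFIT genes therefore did not share a direction with mepenzolate at 25 h, where 1 of 3 stood higher.

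Among the other members at 25 h, Oas1a, whose product makes the 2-5A second messenger that activates RNase L, read 6.68 and 6.63 with vehicle and 6.90 and 6.79 with mepenzolate, 0.19 ± 0.089. Rtp4, a chaperone of receptor transport with antiviral activity, read 7.83 and 7.92 against 8.03 on both mepenzolate arrays, 0.15 ± 0.080. Samhd1, which depletes deoxynucleotides, read 10.64 and 10.63 against 10.78 and 10.83, 0.17 ± 0.096. In these genes both mepenzolate arrays lay above both vehicle arrays. Parp14, an ADP-ribosyl transferase, differed by 0.14 ± 0.099, by 0.036 without array 1 of mepenzolate and by 0.25 without array 2.

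On the lower side at 25 h, Isg20 read 9.56 on both vehicle arrays and 9.51 and 9.20 with mepenzolate, -0.21 ± 0.12, which was -0.052 without array 2 of mepenzolate and -0.36 without array 1. Over both times Isg20 differed by -0.20 ± 0.084, with an unadjusted p of 0.0444 and an adjusted p of 0.999 by limma, and by -0.12 without array 2 of mepenzolate at 25 h. Oas3, the longest OAS enzyme, read 6.36 and 6.27 with vehicle and 6.02 and 6.18 with mepenzolate, -0.21 ± 0.14, and -0.13 without array 1 of mepenzolate. Ifitm3, which blocks fusion of viruses in endosomes, differed by -0.094 ± 0.081, and the transcription factor Irf1 by -0.083 ± 0.081. Ifitm3 was at -0.15 and -0.040 without arrays 1 and 2 of mepenzolate, and Irf1 at -0.044 without array 2 of vehicle and at -0.053 with its probes averaged. For these 4 genes both mepenzolate arrays lay below both vehicle arrays, and none passed the test.

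Over both times limma called 0 members and 0% of all genes for mepenzolate against vehicle, and at an unadjusted p under 0.05 it counted 2 members, Ifit1 and Isg20, beside 3.77% of all genes. The median was 0.021 for members and -0.019 for all genes, of which 60.0% stood lower, or 47.4% after median centring. Of the 34 members, 12 stood higher at both times and 5 lower at both, against 18.7% and 33.8% of all genes. For no member did all 4 mepenzolate arrays lie above or below all 4 vehicle arrays, where 0.602% of all genes lay wholly higher and 1.81% wholly lower. Parp14 differed by 0.11 ± 0.070 and Oas3 by -0.10 ± 0.098. Parp14 was at 0.061 without array 1 of mepenzolate at 25 h, and Oas3 at 0.0015 without array 1 of mepenzolate at 7 h.

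The treatment by time term, the 25 h difference minus the 7 h difference, was called for 0 members (smallest adjusted p 1.00 by limma) and 0% of all genes, with 0 members and 2.68% of all genes at an unadjusted p under 0.05. It was below 0 for 16 of the 34 members and for 51.7% of all genes, with medians of 0.031 and -0.0058. Its largest positive member was Usp18, 0.58 ± 0.32. Its mepenzolate arrays lay below vehicle at 7 h, and at 25 h they read 9.39 and 8.58 against 8.56 and 8.88 with vehicle. Ifit3 was at -0.36 ± 0.22, Rtp4 at 0.21 ± 0.11 and Zbp1 at -0.18 ± 0.13. The Usp18 term was 0.18 without array 1 of mepenzolate at 25 h and 0.99 without array 2, so its size rested on that pair. Ifit3 was at -0.61 and -0.11 without the same arrays, and Zbp1 at -0.076 without array 1 of vehicle at 7 h. The 95% interval of a 2-against-2 difference reached 0.174 (Parp9) to 0.526 (Usp18) either side, with a median of 0.235. Over the members, the bounds ran from -0.84 to 0.65 at 7 h and from -0.64 to 0.80 at 25 h, so the arrays leave room for differences of that size in both directions.

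**Figure D2:**
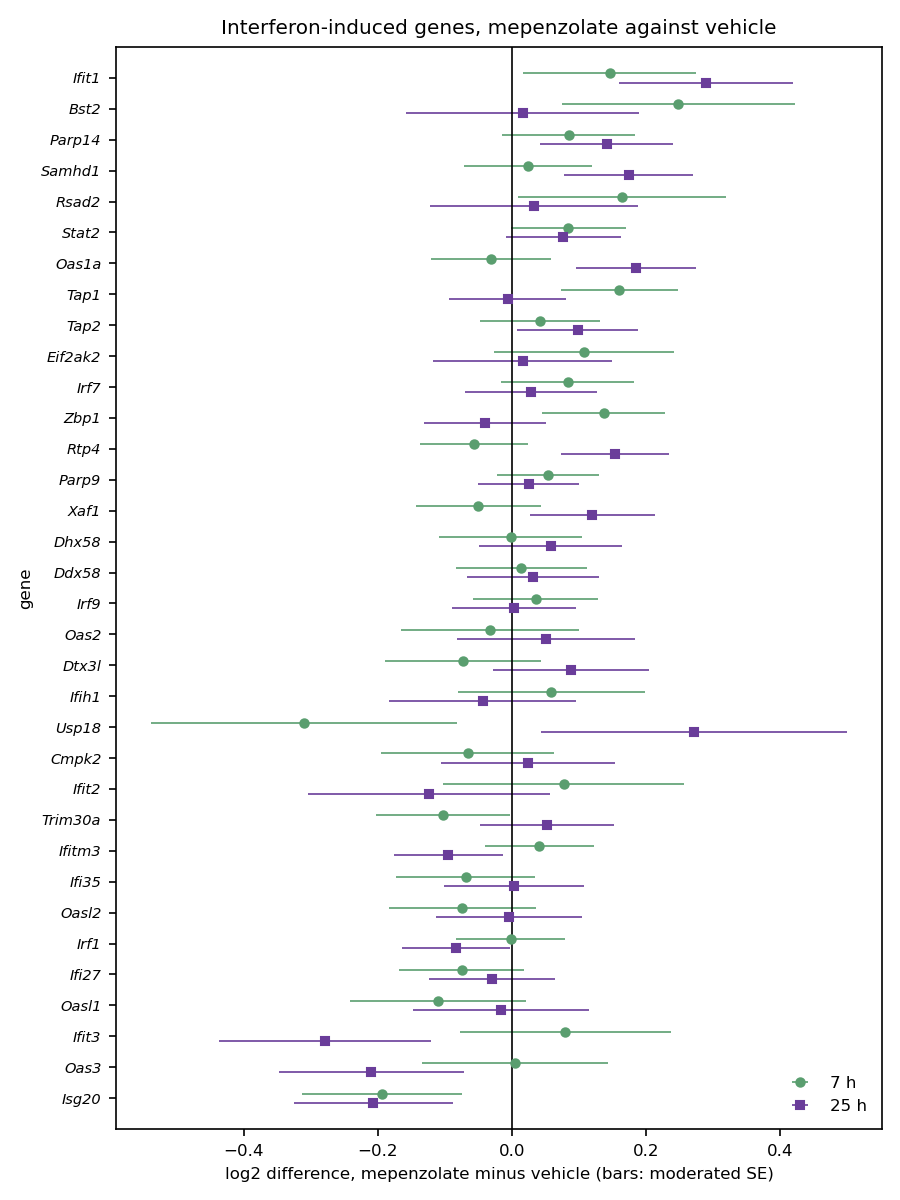
Mepenzolate minus vehicle (log2 difference) for the 34 tested interferon-induced genes at 7 h and at 25 h; points are differences and bars 1 moderated SE either side, from limma. The differences run from -0.31 to 0.25 at 7 h and from -0.28 to 0.29 at 25 h, and no gene passed at either time.

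Most members stood lower at 25 h than at 7 h under both treatments. In vehicle lungs 28 of the 34 stood lower at 25 h than at 7 h and 6 higher, by -0.47 to 0.14, with a median of -0.075 where the median of all genes was -0.00023 and 50.1% of them stood lower. limma called 0 members and 0.0869% of all genes (13), and at an unadjusted p under 0.05 it counted 3 members, all lower, and 5.74% of all genes (3.04% lower). The groups did not overlap for 17 members lower and 3 higher, where 22.2% of all genes were wholly lower and 20.9% wholly higher. Rtp4 differed most by its moderated statistic: 8.17 and 8.30 at 7 h, 7.83 and 7.92 at 25 h, -0.36 ± 0.080 (SE, n = 2 per group, adjusted p 0.348 by limma).

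Oasl2, an OAS relative with a ubiquitin-like tail, read 9.02 and 9.05 at 7 h and 8.64 and 8.58 at 25 h in vehicle lungs, -0.43 ± 0.11 (adjusted p 0.464 by limma). Oas1a read 6.80 and 6.98, then 6.68 and 6.63, -0.23 ± 0.089 (adjusted p 0.807 by limma). Both genes had the 25 h arrays wholly below the 7 h arrays, as Rtp4 did. The members at the higher end were Tap1 (0.14 ± 0.087), Irf1 (0.066 ± 0.081) and Ifitm3 (0.051 ± 0.081). Leaving out 1 array gave 0.074 for Tap1 (array 2 at 7 h), 0.028 for Irf1 (array 2 at 25 h), 0.021 for Ifitm3 (array 1 at 7 h) and -0.14 for Oas1a (array 2 at 7 h). Oas2 read 6.44 and 6.68 at 7 h and 6.40 and 6.25 at 25 h, also without overlap. In vehicle lungs 3 of the 5 OAS genes tested were thus wholly lower at 25 h, where 22.2% of all genes were. In mepenzolate lungs 1 of the 5 was, Oasl2, where 15.2% of all genes were.

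In mepenzolate lungs 29 of the 34 members stood lower at 25 h and 5 higher, by -0.62 to 0.11. The median was -0.071, against -0.0050 for all genes, of which 52.1% stood lower. limma called 0 members and 0.0268% of all genes (4), and at an unadjusted p under 0.05 it counted 2 members, both lower, and 6.37% of all genes (3.09% lower). The groups did not overlap for 6 members lower and 0 higher, where 15.2% of all genes were wholly lower and 12.5% wholly higher. Without array 2 of mepenzolate at 25 h, 19 members stood lower and the median was -0.018; without array 1, 28 did and it was -0.13.

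Ifit3 read 10.02 and 10.15 at 7 h and 9.72 and 9.22 at 25 h in mepenzolate lungs, -0.62 ± 0.16 (adjusted p 0.408 by limma), and -0.37 without array 2 at 25 h. Oasl2 read 8.98 and 8.94, then 8.77 and 8.44, -0.36 ± 0.11 (adjusted p 0.559 by limma), and -0.19 without that array. Rtp4 read 8.20 and 8.17, then 8.03 on both arrays, -0.15 ± 0.080. All 3 kept their 25 h arrays below their 7 h arrays. Usp18 (0.11 ± 0.23), Oasl1 (0.091 ± 0.13) and Cmpk2, a mitochondrial nucleotide kinase (0.090 ± 0.13), were at the higher end, and each of them turned below 0 when 1 array was left out.

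The 25 h and 7 h arrays were then compared over both treatments, a comparison added after the values above were seen. Of the 34 members, 29 stood lower at 25 h, where 49.3% of all genes did, and the median was -0.087 against 0.0014. limma called 0 members and 0.221% of all genes (33). At an unadjusted p under 0.05 it counted 3 members, all lower, and 8.97% of all genes (4.95% lower). Oasl2 differed by -0.39 ± 0.077 (adjusted p 0.124), Rtp4 by -0.26 ± 0.057 (adjusted p 0.149) and Ifit3 by -0.44 ± 0.11 (adjusted p 0.208), all by limma with n = 4 per time. With all arrays kept, Oasl2 alone of the members passed under another setting, limma's intensity trend and robust estimation, with an adjusted p of 0.0441. That setting called 123 of all 14953 genes, against 33 in the main fit. Without array 1 of mepenzolate at 25 h the difference of Oasl2 was -0.47, 30 members stood lower and the median was -0.11. Without array 2 of that group Oasl2 and Ifit3 were both at -0.31, 22 members stood lower and the median was -0.049. For Oasl2, Rtp4, Ifit3 and Stat2 all 4 arrays at 25 h lay below all 4 at 7 h, where 4.15% of all genes were wholly lower and 2.55% wholly higher. For Stat2 the margin was narrow, with the nearest arrays at 8.305 and 8.312. Taking the treatments separately, 24 of the 34 members stood lower at 25 h in both and 1 higher in both, against 30.2% and 28.1% of all genes. In whole lung, fewer cells of a type and less RNA per cell cannot be told apart.

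**Figure D3:**
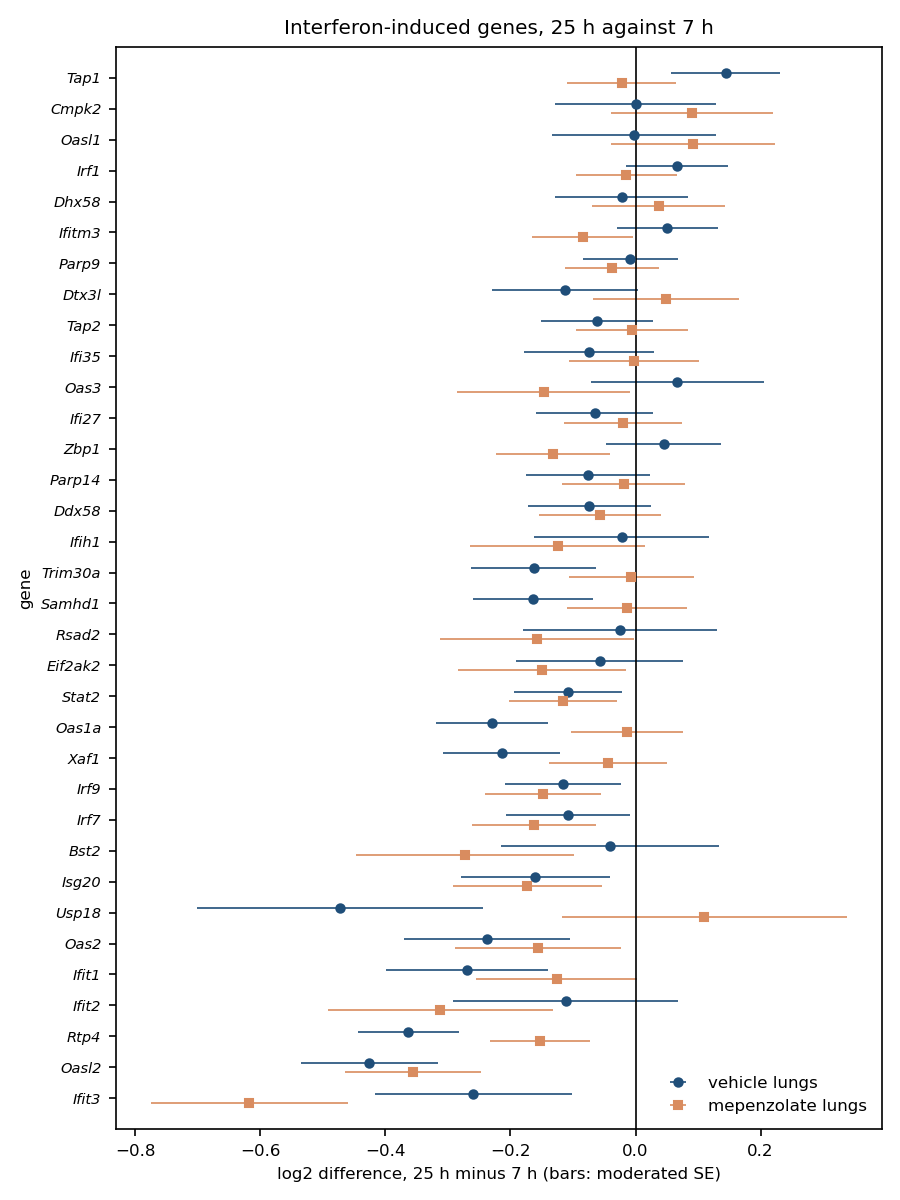
25 h minus 7 h (log2 difference) for the 34 tested interferon-induced genes in vehicle and in mepenzolate lungs; points are differences and bars 1 moderated SE either side, from limma. Of the 34 genes, 28 lie below 0 with vehicle and 29 with mepenzolate, and no gene passed in either.

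By role, the lower readings at 25 h were shared across nearly all groups of members. Over both treatments all 3 IFIT genes stood lower, with a median of -0.21, and 4 of 5 OAS genes, with a median of -0.12. So did 7 of the 8 other antiviral effectors tested (median -0.090), 2 of 3 RNA sensors (-0.065) and 3 of 4 transcription factors (-0.12). All 5 genes of ISG15 removal, ubiquitin and ADP-ribose ligation stood lower (-0.047), as did all 4 remaining induced genes (-0.086). The TAP transporter genes were divided, with Tap1 at 0.061 ± 0.061 (0.026 without array 1 of mepenzolate or array 2 of vehicle at 7 h) and a median of 0.014. The other members above 0 were Oasl1 (0.045 ± 0.093), Cmpk2 (0.045 ± 0.091), Dhx58 and Irf1. Oasl1 and Cmpk2 turned below 0 when 1 array was left out. Medians by role were not the same with vehicle and with mepenzolate. The genes of ISG15 removal, ubiquitin and ADP-ribose ligation were at -0.11 with vehicle and -0.0071 with mepenzolate. The other antiviral effectors went the other way, at -0.033 and -0.14.

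Among the transcription factors, Stat2, which the receptor's kinases activate, ran from 8.31 to 8.50 over the 4 arrays at 7 h and from 8.20 to 8.30 at 25 h. Irf9, its DNA-binding partner, ran from 8.35 to 8.47 and from 8.17 to 8.38. Irf7, which amplifies interferon production, ran from 7.42 to 7.59 and from 7.25 to 7.50. Stat2 did not overlap between the times, but only narrowly, with its lowest 7 h array at 8.312 and its highest 25 h array at 8.305. Irf9 and Irf7 did overlap. Irf1 ran from 9.21 to 9.34 at 7 h and from 9.24 to 9.38 at 25 h, which overlap.

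Of the RNA sensors, Ddx58, which encodes RIG-I, ran from 9.31 to 9.54 over the 8 arrays, and Dhx58, its regulator LGP2, from 6.49 to 6.78. Ifih1, which encodes MDA5, a sensor of long double-stranded RNA, ran from 8.57 to 8.71 at 7 h and from 8.35 to 8.75 at 25 h, where the highest and the lowest reading came from the mepenzolate pair. Eif2ak2, the kinase PKR that halts translation, had the same pattern: 7.33 and 7.24 with vehicle at 25 h and 7.50 and 7.10 with mepenzolate.

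Parp9 and Dtx3l, which form an ADP-ribosylation and ubiquitin ligase pair, ran from 7.94 to 8.05 and from 8.36 to 8.67 over the 8 arrays, and Parp9 had the narrowest interval of the members. Tap2, the partner of Tap1, ran from 8.67 to 8.91. Ifi35 ran from 8.54 to 8.84, Ifi27 from 9.59 to 9.83, and Xaf1, a promoter of apoptosis, from 7.48 to 7.75. Mx1, below the floor, ran from 5.24 to 5.55, and Mx2 from 4.84 to 5.36, and neither was tested. These levels are readings of different probes and give no order of abundance between genes.

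**Figure D4:**
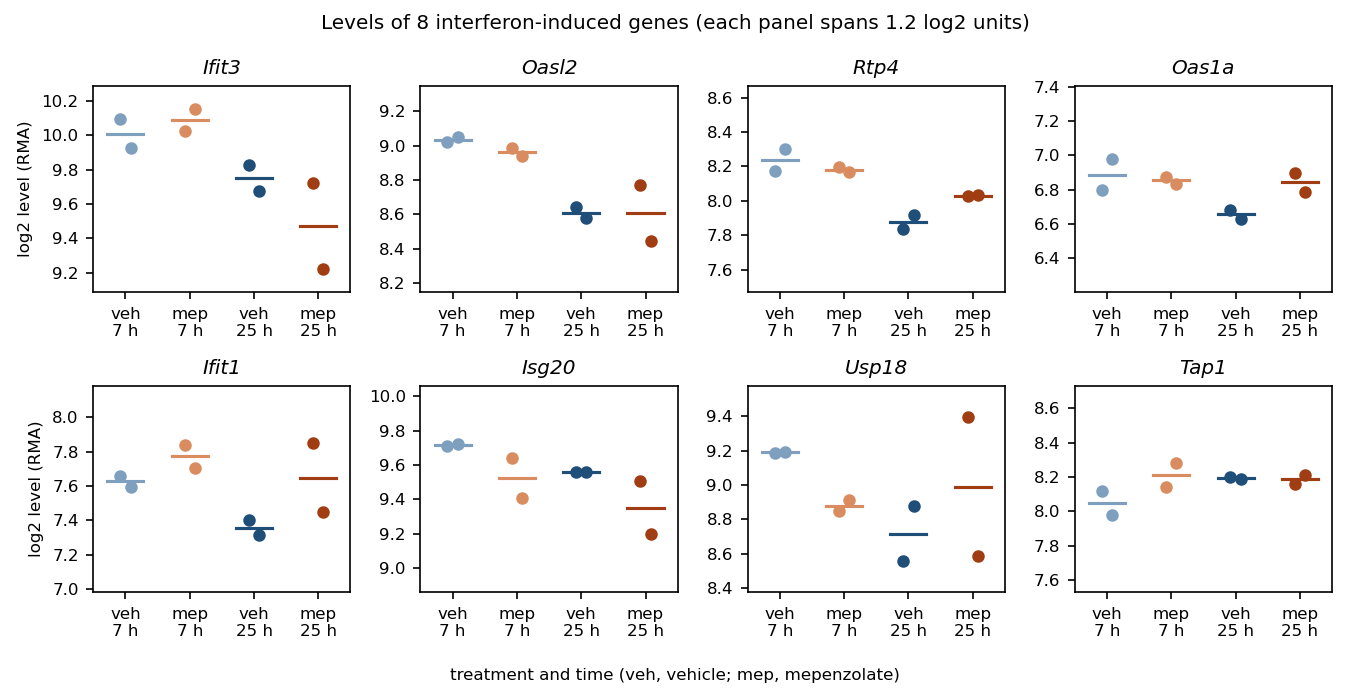
Level (log2 as deposited) on each of the 8 arrays for 8 interferon-induced genes, 1 panel per gene, with arrays by group and a line at each group's mean. Oasl2, Rtp4 and Ifit3 read lower on all 4 arrays at 25 h than on any array at 7 h, and Usp18 spreads from 8.58 to 9.39 within mepenzolate at 25 h.

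The mepenzolate pair at 25 h differed from each other more than the other pairs in these genes. Array 1 read higher than array 2 for 26 of the 34 members, by a median of 0.14, where it did for 56.3% of all genes by a median of 0.026. The gap passed 0.25 for 12 members and for 18.8% of all genes. Usp18 had the largest gap, 9.39 against 8.58, or 0.81, and Ifit2 read 8.02 against 7.43. All 3 IFIT genes and all 5 members of the ISG15, ubiquitin and ADP-ribose group were higher on array 1. With vehicle at 25 h array 1 was higher for 23 members by a median of 0.024, with mepenzolate at 7 h for 17 by 0.0090, and with vehicle at 7 h for 14, with a median of -0.023.

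The upstream genes of the pathway gave no calls. Of 16 ligand and receptor genes listed, 9 were tested, and limma called 0 of them in any of the 7 comparisons. Ifnb1, interferon beta, lay below the floor at 4.97 to 5.31, and Ifng, interferon gamma, at 5.65 to 5.95. The receptor genes Ifnar1 and Ifnar2 ran from 9.35 to 9.53 and from 10.19 to 10.36 over the 8 arrays. Ifna2 was tested but lay near the floor of 5.93, at 5.86 to 6.32 over the 8 arrays. For mepenzolate against vehicle at 7 h Ifna2 differed by 0.13 ± 0.12 and the interferon gamma receptor chain Ifngr2 by -0.16 ± 0.082. At 25 h Ifnl2, an interferon lambda, differed by -0.25 ± 0.12 and Ifna2 by -0.17 ± 0.12.

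Of 11 signalling genes 9 were tested, of 10 inhibitors all 10, and of 11 nucleic acid sensors and adaptors 9; limma called 0 of each in all 7 comparisons. At 7 h 3 signalling genes stood higher with mepenzolate and 6 lower, led by Irf5 (0.12 ± 0.095) and the kinase Jak2 (-0.095 ± 0.090), and at 25 h 6 stood higher and 3 lower. Irf8, a factor of dendritic cell and macrophage development, was at -0.17 ± 0.12 at 25 h, and the kinase gene Ikbke at 0.12 ± 0.13. Socs1, which blocks JAK kinases, was at 0.14 ± 0.11 at 7 h and -0.15 ± 0.11 at 25 h. The phosphatase genes Ptpn6, at 7 h, and Ptpn2, at 25 h, were at 0.097 ± 0.078 and 0.11 ± 0.11. At 7 h the RNA receptor gene Tlr8 was at 0.12 ± 0.12 and Mavs, the adaptor of RIG-I and MDA5, at -0.085 ± 0.084. Among adaptors, Myd88 was at -0.15 ± 0.090 and Ticam1, which encodes TRIF, at -0.15 ± 0.11 at 25 h. From 7 h to 25 h in vehicle lungs 8 of the 10 inhibitors stood higher, 2 of them at an unadjusted p under 0.05, where 49.9% of all genes stood higher and 2.71% passed that threshold upward.

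A second list of 30 interferon-induced genes had 27 tested genes, and about as many of them stood higher as lower at 25 h in vehicle lungs. There 14 of the 27 stood lower and 13 higher, with a median of -0.017, and over both treatments 17 stood lower, with a median of -0.011. limma called 0 of them in all 7 comparisons. No test compared the 2 lists. For mepenzolate against vehicle 18 of the 27 stood lower at 7 h and 16 at 25 h. Sp100, a nuclear body protein, differed by 0.27 ± 0.11 at 25 h, the only gene of this list with an unadjusted p under 0.05 there, and Epsti1 by -0.16 ± 0.11 at 7 h and 0.22 ± 0.11 at 25 h. Herc6, a ligase for ISG15, was at -0.12 ± 0.078 at 7 h.

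Genes linked more closely to interferon gamma, which include guanylate-binding proteins and CXC chemokines, stood apart on 1 array. Of 14 listed, 10 were tested, and limma called 0 in all 7 comparisons. From 7 h to 25 h 7 of the 10 stood higher with vehicle and 8 stood lower with mepenzolate, with medians of 0.091 and -0.15. Over both treatments 8 stood lower at 25 h, with a median of -0.068, where 49.3% of all genes stood lower. On array 2 of mepenzolate at 7 h 9 of these 10 lay above their own means, with a median deviation of 0.28 against -0.11 to 0.054 on the other arrays, while the members' median there was 0.048. Cxcl9, a chemokine for T cells, read 8.71 on that array and 6.05 to 7.07 on the others. Cxcl10 differed by 0.46 ± 0.15 and the immunity-related GTPase Iigp1 by 0.64 ± 0.22 between mepenzolate and vehicle at 7 h, both highest on that array. At 25 h Gbp4 read 9.52 and 9.38 with vehicle and 8.65 and 8.33 with mepenzolate, -0.96 ± 0.16 (unadjusted p 0.00029, adjusted p 0.979 by limma), and Ciita, the activator of MHC class II genes, was at -0.12 ± 0.099. Array 2 of mepenzolate at 7 h also carried the high liver and low club cell readings given above, and the part these play in the values was not tested.

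**Figure D5:**
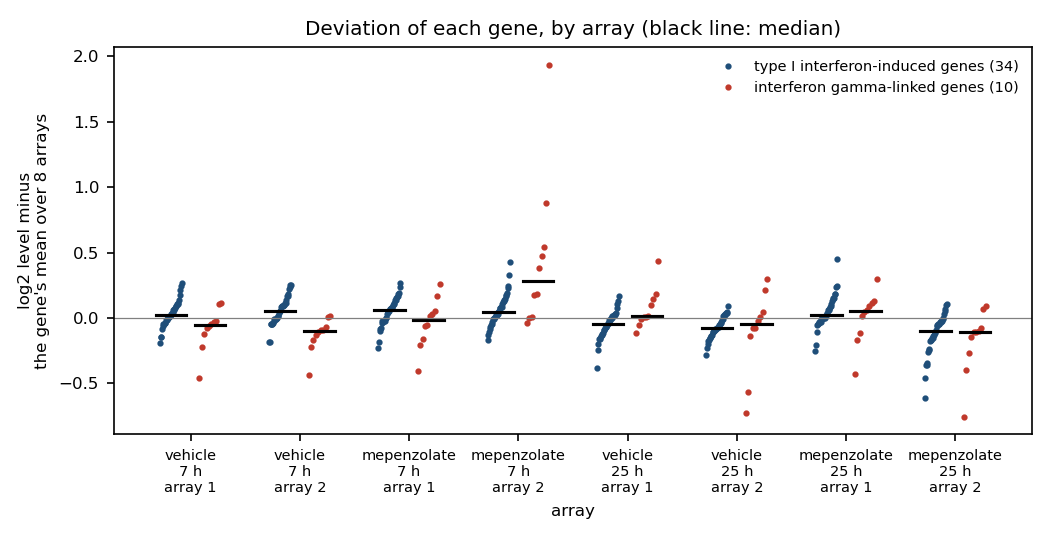
Deviation of each gene from its own 8-array mean (log2, points), by array, for the 34 tested interferon-induced genes and the 10 tested interferon gamma-linked genes, with a black line at each median. The members' median lies between -0.10 and 0.058 on all arrays, and that of the gamma-linked genes reaches 0.28 on array 2 of mepenzolate at 7 h.

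Markers of immune cells were read beside these values, and none was called by limma in the 25 h against 7 h comparisons. The mean level of 8 T cell genes ran from 7.14 to 7.28 over the arrays at 7 h, and from 7.28 to 7.35 with vehicle and 7.55 to 7.60 with mepenzolate at 25 h. Over both treatments all 8 T cell genes, all 5 B cell genes and all 5 monocyte genes tested stood higher at 25 h, and 6, 5 and 3 of them had an unadjusted p under 0.05, as 4.03% of all genes did in that direction. With vehicle alone 0, 1 and 1 of them did by limma, as 2.71% of all genes did in that direction. With mepenzolate alone 7, 5 and 2 of them did, as 490 of all 14953 genes did in that direction. The mean of the 5 B cell genes ran from 7.59 to 8.09 at 7 h and from 7.94 to 8.74 at 25 h, which overlap. The plasmacytoid dendritic cell list, a cell type that makes much interferon alpha, had 6 of 8 genes with a probe, and its mean ran from 7.46 to 7.60 at 7 h and from 7.62 to 7.83 at 25 h. Siglech, its defining receptor gene, ran from 6.54 to 6.89 and from 6.71 to 7.01. Monocyte genes ran from 7.92 to 8.12 at 7 h and from 8.17 to 8.31 at 25 h, and NK genes from 6.42 to 6.78 and from 6.31 to 6.85. Over both treatments 4 of 6 NK genes and 4 of 6 neutrophil genes stood higher at 25 h, and 4 of 6 alveolar macrophage genes lower. With mepenzolate alone all 6 NK genes and 4 of the 6 neutrophil genes stood lower at 25 h, and with vehicle alone 5 and 6 stood higher. Their part in the members' values was not tested.

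Members with and without the response element in their promoter window were set side by side as a description. Over both treatments all 12 members with a match stood lower at 25 h, with a median of -0.097, and 9 of the 13 without one did, with a median of -0.089. In vehicle lungs 10 of the 12 and 10 of the 13 stood lower, with medians of -0.066 and -0.11. In mepenzolate lungs 12 of the 12 and 10 of the 13 did, with medians of -0.13 and -0.022, so the order of the medians was not the same under the 2 treatments. For mepenzolate against vehicle at 7 h 2 of the 12 with a match and 8 of the 13 without stood lower, with medians of 0.069 and -0.050. At 25 h 4 of the 12 and 6 of the 13 stood lower. No test was made of these splits.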

How the data were processed

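The 8 arrays of lung RNA fall into 4 groups of 2, by the treatment and time in their labels. The values are log2 intensities deposited by the authors after RMA, per the submitters' processing notes (version not given in the sources used here), a method that corrects background, quantile-normalizes probes and summarises them per probe set, so that a shift shared by all genes is removed. Depth does not apply to arrays, and their number limits the precision. GEO's platform annotation gave 1 symbol to 21640 of 34760 probes, several to 1321 and none to 11799. The brightest such probe by mean over 8 arrays stood for a gene, and genes under the 25th percentile (5.93) were left out of tests. Paralogs such as the OAS genes can share hybridisation, which the annotation does not resolve. limma 3.58.1 in R 4.3.3 (with version 1.17.8 of data.table) fitted 1 mean per group, with 4 residual degrees of freedom. The p-values were adjusted (Benjamini-Hochberg, threshold 0.05) over 14953 genes. The procedure was run on simulated data with independent noise for each gene and no shift shared by an array. That run checked the code and was not used to judge sensitivity to differences as small as these. An exact permutation test of 2 against 2 arrays cannot go below 0.333, so none is given. Differences are printed for the members with the largest moderated statistics in each direction: 5 at 7 h and at 25 h, 3 for 25 h against 7 h, 2 otherwise. For other pathway genes the 2 largest per list at each time are given. Alb, Cxcl9, Ifnb1, Ifng, Ifnar1, Ifnar2 and Siglech are given by level outside this rule and were chosen after their values were seen. Alternatives were another scaling, filter, probe rule, variance model, a replicate block and leaving out each array. Members and lists were chosen with earlier results of these data known.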

Additional observations from a re-analysis of the deposited data

How the results depend on the processing

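Of 46 differences printed for single members, all 394 recomputations under the alternatives other than leaving out an array kept their sign. Most of these alternatives change the error or the genes tested and leave a difference as it was. Only another scaling, or averaging probes for the 1 member with several, could move it. Outside those that leave out an array, the members' medians moved by less than 0.046, the SD between replicate arrays of the members' median deviation. No count of called members there differed from 0 except 1 for 25 h against 7 h over both treatments. That was Oasl2 (-0.39) with intensity trend and robust estimation. Leaving out each array in turn gave 0 to 1 called members in that comparison. It moved the members' median difference between -0.039 and 0.11 for mepenzolate against vehicle at 25 h, -0.028 and 0.054 over both times, -0.057 and 0.092 for the treatment by time term, and -0.13 and -0.018 for 25 h against 7 h with mepenzolate, the extremes coming without array 1 and array 2 of mepenzolate at 25 h. The sign turned for Oasl1 at 7 h (-0.26 to 0.042) and Oas3 over both times (-0.21 to 0.0015) without array 1 of mepenzolate at 7 h. For 25 h against 7 h it turned with mepenzolate for Oasl1 (-0.060 to 0.24), Cmpk2 (-0.11 to 0.29) and Usp18 (-0.30 to 0.52), and over both treatments for Oasl1 (-0.031 to 0.12) and Cmpk2 (-0.056 to 0.15). The cause was not tested.

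The replicate numbers were tried as a block, although the labels do not say that they pair arrays. Deviations of same-numbered arrays correlated at 0.33 (treatments, 7 h), -0.013 (treatments, 25 h), -0.021 (times, vehicle) and 0.40 (times, mepenzolate). With the replicate block 0 members were called in all 7 comparisons. Calls over all genes were 17, 9 and 73 for 25 h against 7 h in vehicle, in mepenzolate and over both, against 13, 4 and 33 without the block, and 1 against 0 for treatment at 25 h. For the same 3 time comparisons the calls over all genes were 6, 0 and 40 with quantile normalization, 33, 6 and 123 with intensity trend and robust estimation, 55, 0 and 34 with array weights, 13, 1 and 26 with no filter and 17, 3 and 72 with a stricter one. With the compared groups only they were 11 and 1 in vehicle and mepenzolate. Leaving out an array gave 0 to 14, 0 to 2 and 11 to 34, and 0 to 2 in the treatment comparisons. With 2 arrays a group, differences of the size of the intervals given could be missed. The intervals are not adjusted for the number of genes, so they are not the limit of what the test calls. Rtp4 in vehicle lungs, at -0.36 with an interval of -0.55 to -0.18, was not called.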
